A study of Mus musculus with 6 samples.

Results

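NADPH, the reduced carrier that cells spend on glutathione recycling and on the synthesis of fatty acids and sterols, was followed here through 9 genes of its supply in the mucosa of the mouse small intestine. The genes were taken by name from a fixed list, 5 of them cytosolic (G6pdx, Pgd, Taldo1, Tkt and Idh1) and 4 mitochondrial (Nnt, Idh2, Me2 and Me3), out of 38561 Ensembl genes counted in each library. All 9 passed the expression filter that left 16425 genes for testing. The list was drawn up with results of this same comparison in view, so the differences between genotypes are given as a description of these genes. Their adjusted p-values, which come from an edgeR quasi-likelihood fit over all genes, only place them among the other genes and support nothing further.

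RNA was sequenced as 3 pools from mice labelled Rbm47-IKO, in which a constitutive Cre driven by the villin promoter deletes floxed Rbm47, an RNA-binding protein gene, in the intestinal epithelium. A further 3 pools came from mice labelled wt, which the study's methods describe as Rbm47 fl/fl animals. All 6 were of strain C57BL/6J, aged 8 to 12 weeks, and each pool mixed RNA from 3 mice of both sexes by the labels. The pools are the replicates, since the single animals cannot be seen in them.

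Depth ran from 31560320 to 38951830 counts per pool. Rbm47 itself was no lower where its deletion was labelled, with counts scaled to library size (CPM) of 603, 625 and 619.8 against 459.8, 449.9 and 472 in the control pools (log2 fold change 0.42 ± 0.10 SE, adjusted p = 0.0751 by edgeR). The count covers the whole gene and not the deleted part alone, so the deletion itself was not checked, and every direction below is between the pools as labelled. SE stands for the standard error of a log2 fold change. The 10 enterocyte markers summed to between 57830 and 63014 CPM in the pools labelled Rbm47-IKO and to between 65422 and 72321 CPM in controls, and none was near 0. Of these 10, 5 had log2 fold changes above 0 and 5 below, with 2 higher and 3 lower without overlap of pools, a median of -0.04 and 0 called by edgeR (5 at an unadjusted p under 0.05, and 4 by DESeq2). Smooth muscle markers differed widely within each genotype, from 361 to 3302 CPM in the pools labelled Rbm47-IKO and from 90.7 to 2803 CPM in controls. Of the other marker sums, those of goblet cell, ileal and enteroendocrine genes did not overlap between genotypes, and those of Paneth, tuft, fibroblast, B and plasma, T, endothelial and red cells and of proximal intestine did. The 6 goblet cell markers summed to 19925 to 22692 CPM in the pools labelled Rbm47-IKO against 14980 to 17365 CPM, and 4 ileal genes to 456 to 616 CPM against 310.3 to 439 CPM, with 0 of either list called by edgeR (2 and 3 at an unadjusted p under 0.05, and 2 and 2 by DESeq2). The 7 enteroendocrine markers summed to 117 to 129 CPM against 156 to 201 CPM, with 0 of 7 log2 fold changes above 0 and 1 gene called lower by edgeR, where 1.25% of all tested genes were (4 at an unadjusted p under 0.05, and 3 lower by DESeq2). The part of these lists in the results below was not tested. Xist, the X-inactivation transcript of female cells, was at 75.6, 258 and 40.3 CPM in the pools labelled Rbm47-IKO and at 1.09, 150.0 and 0.686 CPM in controls, so control pools 1 and 3 were close to 0 although the labels give both sexes. In bulk RNA, fewer cells of a type and less RNA per cell cannot be told apart.

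The supply of NADPH is divided between compartments, because the inner mitochondrial membrane does not let the carrier through. In the cytosol, glucose-6-phosphate dehydrogenase (G6pdx) and 6-phosphogluconate dehydrogenase (Pgd) each make NADPH in the oxidative branch of the pentose phosphate pathway. Transaldolase (Taldo1) and transketolase (Tkt) make none themselves and return pentose phosphates to glycolysis in the branch that follows. Isocitrate dehydrogenase makes NADPH in the cytosol as Idh1 and in mitochondria as Idh2. Nicotinamide nucleotide transhydrogenase (Nnt) sits in the inner mitochondrial membrane and uses the proton gradient to move hydride from NADH to NADP. The C57BL/6J substrain is known for a deletion of internal exons of Nnt that leaves it without working protein, while related C57BL/6 substrains carry the intact gene. The mitochondrial malic enzymes convert malate to pyruvate, Me3 with NADP and Me2 mainly with NAD.

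Sequences around the start of transcription are shown for G6pdx and Pgd, because both had higher values in every pool labelled Rbm47-IKO than in every control pool and because both are textbook targets of the antioxidant response. RefSeq windows on GRCm38.p6, reaching from 250 bases before to 50 bases after a start, were at hand for 7 of the 9 genes and numbered 9, with no entry for Nnt or Me2. They were searched on both strands for TGACNNNGC, the core of the antioxidant response element, which is the letter pattern that NRF2 and its partners bind. A match was found in 2 of the 9 windows, and 12.4% of all 32851 windows of that length hold one. TCACNCCAC, a sterol regulatory element, was in 0 of the 9 and in 1.24% of all windows. The matches are printed 5′ to 3′ on the strand that carries the pattern, with the pattern in capitals and 10 bases of flank on each side:
G6pdx, chrX:74428919-74428947, plus strand, 57 to 49 bases before the start: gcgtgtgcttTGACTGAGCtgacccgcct
Pgd, chr4:149166061-149166089, minus strand, bases 4 to 12 after the start of the second listed window: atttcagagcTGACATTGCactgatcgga
These are matches of letters, and nothing measured here bears on binding. The G6pdx pattern lies on the strand opposite to the gene, and the other Pgd window, at the upstream start, has no match.

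G6pdx was also among the genes for which the study designed qPCR primers, which are shown because they mark which part of the transcript such an assay reads. Both match GENCODE M21 (GRCm38) transcripts of the gene, the forward primer in exon 5 at chrX:74413881-74413904 and the reverse primer in exon 6 at chrX:74412456-74412473, so that the product spans an intron. It is 63 bases long in transcript G6pdx-201 and 66 bases in G6pdx-203.
G6pdx forward: gcagtcaccaagaacattcaagag
G6pdx reverse: cacgatgatgcggttcca
The counts analysed here cover the whole gene model and are not limited to that product.

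Nnt stood apart from the other 8 genes. It was lower in all pools labelled Rbm47-IKO, and it was the 1 gene of the 9 that edgeR called (adjusted p at or under 0.05). Called higher were 0 of the 9, against 1.45% of all tested genes, and called lower was 1, against 1.25%. Both directions together made 2.7% of all tested genes (443 of 16425). Nothing is read from these shares, since the list was drawn from this contrast. At an unadjusted edgeR p under 0.05, 4 of the 9 were higher and 2 lower, where 8.57% of all tested genes were higher and 8.21% lower. Nnt (ENSMUSG00000025453, chr13:119335448-119408997, minus strand) had 19.1, 19.2 and 22.7 CPM in the pools labelled Rbm47-IKO. The control pools had 54.3, 85.6 and 78.2 CPM. The highest of the first group lay far under the lowest of the second, and the controls were the more scattered set. The means were 20.3 ± 2.05 CPM (SD, n = 3 pools) and 72.7 ± 16.4 CPM (SD, n = 3), so that controls were 3.58-fold higher. The log2 fold change was -1.84 ± 0.18 (SE, adjusted p = 0.00875 by edgeR), the 45th lowest of all 16425. These values rest on 660, 726 and 740 counts against 1846, 3249 and 2849. No other tested gene overlaps it. When 1 pool was dropped at a time, the Nnt log2 fold change lay between -2.01 and -1.71 and its edgeR adjusted p between 0.0101 and 0.0698. It was above 0.05 without pool 1 or pool 2 labelled Rbm47-IKO (0.0509 and 0.0698) and without control pool 3 (0.0504).

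GENCODE M21 lists 6 transcripts of Nnt on this C57BL/6J assembly, 4 of them protein coding with between 14 and 17 exons. Each gene has 1 count over the exons annotated on this assembly, so the level of single exons or transcript forms was not analysed here. Exons that the assembly lacks could not be counted. All pools, controls included, carry the same strain label.

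**Figure D1:**
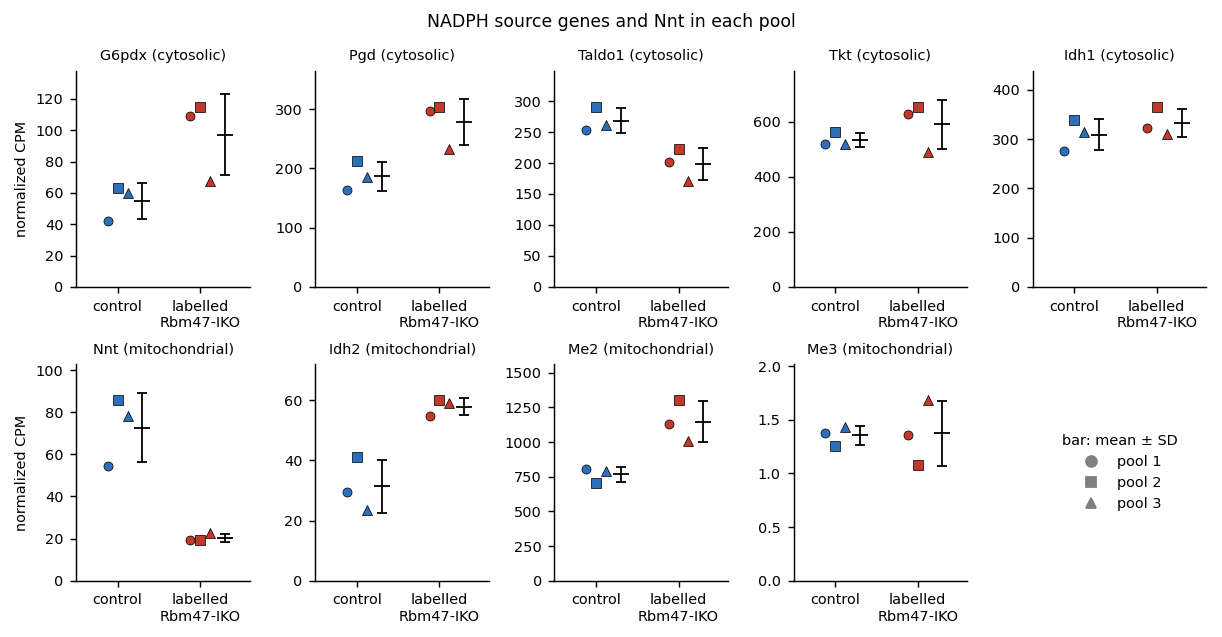
Normalized CPM of each of the 9 genes (vertical axes, starting at 0) in the control pools (blue) and the pools labelled Rbm47-IKO (red), with symbols for the pool number and bars for mean ± SD of 3 pools. Nnt lies between 54.3 and 85.6 CPM in controls and between 19.1 and 22.7 CPM in the labelled pools, Idh2 and Me2 are higher in each labelled pool than in each control pool, and Me3 stays under 2 CPM.

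Among the cytosolic genes, G6pdx and Pgd were higher and transaldolase was lower, with no overlap of pools, while Tkt and Idh1 overlapped. None of the 5 was called by edgeR. Over all 9 genes, 6 had pools that did not overlap between genotypes, 4 higher and 2 lower. Such separation was found for 23.3% of all tested genes, 11.7% higher and 11.6% lower, and nothing is read from the comparison.

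G6pdx (ENSMUSG00000031400, chrX:74409483-74429194), the entry step of the pentose phosphate pathway, had 109, 115 and 67.3 CPM in the pools labelled Rbm47-IKO. It had 41.8, 63.2 and 59.8 CPM in controls. Pool 3 labelled Rbm47-IKO came close to the highest control pool, and the other two were well above it. The log2 fold change was 0.82 ± 0.23 (SE, adjusted p = 0.121 by edgeR), or 1.76-fold between means. With 1 pool left out it ranged from 0.66, without control pool 1, to 1.02, without pool 3 labelled Rbm47-IKO, and the edgeR adjusted p from 0.0752 to 0.424. G6pdx lies on the X chromosome, and transcripts tied to sex differed between pools as given above. The sum over 4 Y-linked genes came to 139, 53.0 and 144 CPM in the first group and to 215, 87.9 and 220.3 CPM in the second. With the mean log2 CPM of these 4 genes as a covariate, a fit chosen after the data were seen, the log2 fold change of G6pdx was 0.64 (adjusted p = 0.348 by edgeR) and that of Nnt -1.89 (adjusted p = 0.0402 by edgeR). Ikbkg overlaps G6pdx on the opposite strand, and its log2 fold change was -0.001 (adjusted p = 0.998 by edgeR).

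Pgd (ENSMUSG00000028961, chr4:149149991-149166771), the next NADPH-making step, had 297, 304 and 233 CPM against 163, 212 and 185 CPM in controls. Its lowest labelled pool, again pool 3, was above the highest control pool. The log2 fold change was 0.57 ± 0.15 (SE, adjusted p = 0.0979 by edgeR). The fold between means was 1.49. Pgls, the lactonase that acts between G6pdx and Pgd, was at 30.1 ± 2.73 CPM against 29.6 ± 7.18 CPM, and its pools overlapped. Its log2 fold change was 0.02 ± 0.18 (SE, adjusted p = 0.973 by edgeR). The oxidative branch was not tested as a whole.

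Taldo1 (ENSMUSG00000025503, chr7:141392199-141402968), which exchanges carbon units in the non-oxidative branch, went the other way. It had 202, 223 and 171 CPM in the pools labelled Rbm47-IKO and 253, 291 and 262 CPM in controls. Every labelled pool was under every control pool, and the control mean was 1.35-fold higher. The log2 fold change was -0.44 ± 0.13 (SE, adjusted p = 0.134 by edgeR).

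Tkt (ENSMUSG00000021957, chr14:30548359-30574722), which works beside transaldolase with thiamine pyrophosphate as its cofactor, had 628, 654 and 488 CPM against 519.9, 563 and 518 CPM. Pool 3 labelled Rbm47-IKO was below all controls and the other two were above them, so the groups overlapped (log2 fold change 0.15 ± 0.14 SE, adjusted p = 0.696 by edgeR). Idh1 (ENSMUSG00000025950, chr1:65158616-65186479) had 323, 366 and 311 CPM against 275, 338 and 315 CPM. Its groups overlapped as well, with a log2 fold change of 0.11 ± 0.13 (SE, adjusted p = 0.767 by edgeR). Over the fits that drop 1 pool, Tkt ranged from 0.07 to 0.27 and Idh1 from 0.03 to 0.18 on the log2 scale, and neither passed the threshold.

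Pool 3 labelled Rbm47-IKO was the lowest of its group for all 5 cytosolic genes and for Me2. It was also the pool with the highest muscle markers, at 3302 CPM. With the mean log2 CPM of the muscle markers as a covariate, again chosen after the data were seen, the log2 fold changes were 0.81 for G6pdx, 0.56 for Pgd and -0.44 for Taldo1, with edgeR adjusted p of 0.0789, 0.0835 and 0.135. For Me2 and Idh2 they were 0.63 and 0.81 (edgeR adjusted p of 0.0426 and 0.0261), past the threshold. With the Y-linked genes as the covariate instead, Me2 was at 0.54 and Idh2 at 0.74 (edgeR adjusted p of 0.261 and 0.153), not past it.

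Among the mitochondrial genes other than Nnt, Idh2 and Me2 were higher in every pool labelled Rbm47-IKO than in every control pool, and Me3 did not separate the groups. Neither Idh2 nor Me2 was called by edgeR. Idh2 (ENSMUSG00000030541, chr7:80094846-80115392) had 54.7, 59.9 and 59.0 CPM in the pools labelled Rbm47-IKO. Controls had 29.6, 41.0 and 23.5 CPM. The labelled pools lay close together and the controls were spread, with a log2 fold change of 0.88 ± 0.19 (SE, adjusted p = 0.0619 by edgeR) and means 1.85-fold apart. The RNA levels of Nnt and Idh2 thus lay in opposite directions. Both enzymes supply NADPH in the matrix where they work. The strain label C57BL/6J goes with the Nnt deletion described above, and protein was not measured. Over the fits that drop 1 pool, Idh2 ranged on the log2 scale from 0.72, without control pool 3, to 1.13, without control pool 2. It passed the threshold in 1 of these 6 fits, the one without control pool 2 (adjusted p = 0.0167 by edgeR), and the highest adjusted p was 0.255.

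Me2 (ENSMUSG00000024556) had the most counts of the 9 genes, with 1131, 1300.1 and 1006 CPM in the pools labelled Rbm47-IKO. The controls had 805, 708 and 789.6 CPM. All labelled pools were above all controls, and the log2 fold change was 0.58 ± 0.14 (SE, adjusted p = 0.0729 by edgeR). Me3 (ENSMUSG00000030621, chr7:89632392-89854359), the malic enzyme of mitochondria that uses NADP, had 1.36, 1.08 and 1.68 CPM against 1.38, 1.26 and 1.43 CPM. These are between 41 and 55 counts per pool, the groups overlapped fully, and the log2 fold change was 0.02 ± 0.29 (SE, adjusted p = 0.987 by edgeR), with a sign that turned under 6 of the 18 alternatives. DESeq2 called 9.03% of the 13863 genes it gave an adjusted p (4.85% higher and 4.18% lower), and called 6 of the 9 genes, namely G6pdx, Pgd, Idh2 and Me2 as higher and Nnt and Taldo1 as lower.

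To compare levels between genes, normalized CPM was divided by the gene length in kilobases (RPKM). In controls the order was Me2 at 313 ± 21.2 RPKM (SD, n = 3), Taldo1 at 134 ± 9.98, Idh1 at 122 ± 12.6, Tkt at 81.7 ± 3.91, Pgd at 29.0 ± 3.87, G6pdx at 17.8 ± 3.72, Idh2 at 12.1 ± 3.43, Nnt at 10.3 ± 2.33 and Me3 at 0.0929 ± 0.00573 RPKM. The control pools of Taldo1 and Idh1 overlapped, as did those of G6pdx and Idh2 and those of Idh2 and Nnt, so the order within these pairs is not settled. All other neighbours in the order were apart in every control pool. The length used is that of the whole gene model, 7037 bases for Nnt, whose longest GENCODE M21 transcript has 3464. The order therefore depends on this length. By mean CPM in controls, Tkt (534) stood above Idh1 (309.7) and Taldo1 (269), and Nnt (72.7) above Idh2 (31.3). In the pools labelled Rbm47-IKO, Idh1 (132 ± 11.5 RPKM) stood above Taldo1 (99.3 ± 13.2 RPKM), with no overlap, and the other places were in the same order, though there the pools of Taldo1 and Tkt, of Pgd and G6pdx and of G6pdx and Idh2 overlapped. Nnt, close to Idh2 by RPKM in controls, was at 2.88 ± 0.291 RPKM there against 22.4 ± 1.09 RPKM for Idh2.

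Shares within a pool do not depend on how pools are scaled to each other. Idh2 made up 14.2%, 13.8% and 15.7% of the summed RPKM of Idh1 and Idh2 in the pools labelled Rbm47-IKO. In controls its share was 9.5%, 10.6% and 6.79%. The cytosolic form was the larger part in all 6 pools, and the mitochondrial share was higher in each labelled pool, by 5.58 percentage points between means. Leaving out any pool kept this difference between 4.5 and 6.4 points.

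Me2 held 96.5% to 99.3% of the summed RPKM of the 3 malic enzymes in every pool. Me1, the cytosolic enzyme that makes NADPH, held 2.21%, 1.83% and 1.6% in the pools labelled Rbm47-IKO and 0.697%, 3.51% and 3.33% in controls, so control pool 1 lay below all labelled pools and the other controls above them. G6pdx held 43.3%, 44.1% and 37.7% of the summed RPKM of G6pdx and Pgd, against 35.0%, 38.4% and 40.3% in controls. These groups overlapped. Me3 held under 0.03% of the malic enzyme sum in every pool. The shares are a description and were not tested.

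**Figure D2:**
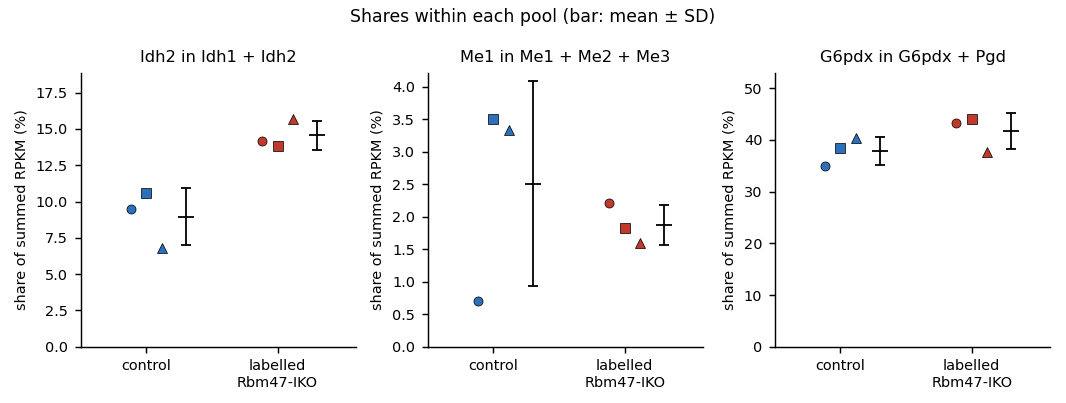
Share of summed RPKM (percent, axes from 0) of Idh2 within Idh1 and Idh2, of Me1 within the 3 malic enzymes and of G6pdx within G6pdx and Pgd, for each control pool (blue) and each pool labelled Rbm47-IKO (red), with circles, squares and triangles for pools 1, 2 and 3 and bars for mean ± SD. The Idh2 share is 13.8% to 15.7% in the labelled pools and 6.79% to 10.6% in controls, while the other shares overlap.

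The remaining genes of NADPH metabolism were taken from lists by role, and were read against a median log2 fold change of -0.006 over all tested genes. Of 6 other pentose phosphate genes tested, 2 fell by the edgeR test and 0 rose, where 1.25% and 1.45% of all tested genes did, and the median log2 fold change was -0.13. Of these 6, 3 had an unadjusted p under 0.05, and DESeq2 called 2 lower and 1 higher. Rpe, the epimerase that makes xylulose 5-phosphate, fell from 38.7 ± 4.58 CPM (SD, n = 3) to 19.5 ± 0.298 CPM (log2 fold change -0.99 ± 0.12 SE, adjusted p = 0.0102 by edgeR). Shpk, the kinase that feeds sedoheptulose into the pathway, fell from 38.6 ± 7.38 CPM to 19.6 ± 0.377 CPM (log2 fold change -0.98 ± 0.15 SE, adjusted p = 0.0216 by edgeR). Rpia, the isomerase that competes with Rpe for the same substrate, had a log2 fold change of 0.55 and did not pass (adjusted p = 0.0974 by edgeR). Leaving out 1 pool at a time, Rpe passed in 3 of 6 fits (adjusted p 0.018 to 0.0978) and Shpk in 2 of 6 (0.0164 to 0.137). Rpe lost the call without pools 1 or 2 labelled Rbm47-IKO or control pool 3 (0.0653, 0.0978 and 0.0504), and Shpk without any of the 3 labelled pools or control pool 3 (0.108, 0.137, 0.0802 and 0.0677). With all pools kept, both lost it with the Y-linked covariate (0.0577 for Rpe and 0.096 for Shpk). Shpk also lost it with the pool number as a block (0.0611). Kansl1l overlaps the end of Rpe on the opposite strand, and its own log2 fold change was -0.47 (adjusted p = 0.251 by edgeR). Tktl1 and Tktl2, the transketolase-like genes, did not pass the expression filter.

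Of 3 other cytosolic genes that make NADPH and 6 mitochondrial genes that make it or feed the folate route to it, 0 and 0 passed the edgeR test (1 and 2 at an unadjusted p under 0.05, and 0 and 1 by DESeq2). The medians of their log2 fold changes were 0.31 and 0.49, and all 9 values were above 0. Pools were higher without overlap for 1 and 3 of them, where 11.7% of all tested genes were. Me1 was at 29.3 ± 6.60 CPM against 25.9 ± 16.0 CPM (log2 fold change 0.18, adjusted p = 0.923 by edgeR). For Mthfd1 and Aldh1l1, which act in the cytosolic folate cycle, these were 0.40 and 0.31 (adjusted p = 0.317 and 0.202 by edgeR). In mitochondria the largest values were 0.63 for Glud1, glutamate dehydrogenase (adjusted p = 0.147 by edgeR), and 0.54 for Aldh1l2 of the folate route (adjusted p = 0.539 by edgeR). The NAD kinases, which make NADP from NAD, had -0.20 for Nadk2 and -0.06 for Nadk (adjusted p = 0.685 and 0.928 by edgeR). Of 5 NAD-linked dehydrogenases of the same substrates and 2 NAD kinases, 0 passed by edgeR (0 at an unadjusted p under 0.05, and 0 by DESeq2). The values furthest from 0 were -0.28 for Mdh1 and 0.22 for Mdh2 (adjusted p = 0.511 and 0.481 by edgeR). The NAD-linked Idh3 subunits lay between -0.11 and 0.05, and NADP-linked Idh2 was at 0.88.

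Among the 11 genes listed as spending NADPH, 2 rose by the edgeR test, where 1.45% of all tested genes did. The median log2 fold change of the 11 was 0.44, and not all of them are named below. Of these 11, 5 had pools higher without overlap (11.7% of all tested genes), 5 had an unadjusted p under 0.05, and DESeq2 called 4 higher. Nqo1, a quinone reductase, rose from 16.9 ± 3.61 to 49.6 ± 8.79 CPM (log2 fold change 1.55, adjusted p = 0.0119 by edgeR). Cbr3, a carbonyl reductase, rose from 0.466 ± 0.147 to 2.03 ± 0.807 CPM (log2 fold change 2.11, adjusted p = 0.043 by edgeR), resting on at most 112 counts a pool. Chosen after its values were seen, Fasn, which builds fatty acids, was at 1.07 on the log2 fold change scale without passing (adjusted p = 0.0726 by edgeR). Gsr, which hands NADPH electrons to glutathione, had -0.03 (adjusted p = 0.975 by edgeR). The thioredoxin reductases Txnrd1, Txnrd2 and Txnrd3 had -0.10, 0.20 and 0.74 (adjusted p = 0.773, 0.56 and 0.212 by edgeR), and the pools of Txnrd3 were higher without overlap. With 1 pool left out, Nqo1 passed in 3 of 6 fits (adjusted p 0.0124 to 0.0834), and Cbr3 in 1 (0.0463 to 0.216). Nqo1 lost the call without pools 1 or 2 labelled Rbm47-IKO or control pool 3 (0.0651, 0.0834 and 0.0621). Of the 6 fits, Cbr3 kept it in the one without control pool 2. With all pools kept, Cbr3 lost it under limma-voom (0.0506) and with the pool number as a block (0.0612). It also lost it with the Y-linked covariate (0.108) and an offset for GC content (0.0533), both chosen after the data were seen.

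**Figure D3:**
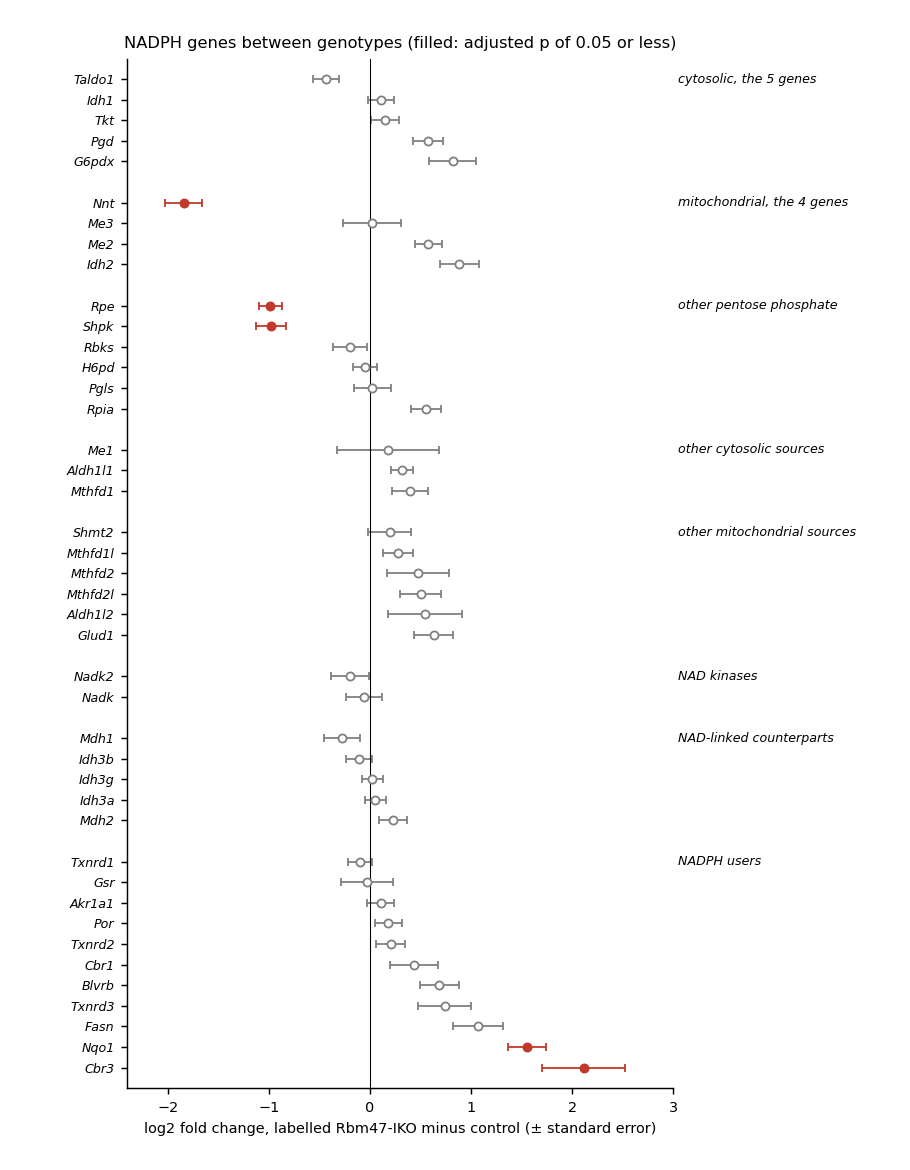
Log2 fold change (labelled Rbm47-IKO minus control, horizontal axis) with its standard error for the 9 genes and the other reported genes of NADPH metabolism, grouped by role, filled where the edgeR adjusted p was 0.05 or less. Nnt at -1.84 is the lowest point, Cbr3 at 2.11 the highest, and the filled points are Nnt, Rpe, Shpk, Nqo1 and Cbr3.

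The tested genes next to Nnt on chromosome 13 were examined on both sides. On the side of lower coordinates, Fgf10 and Mrps30 start 739.2 and 1021.7 kb away. Their log2 fold changes were -0.02 and 0.03 (adjusted p = 0.993 and 0.954 by edgeR), and their pools overlapped. On the other side, Paip1, 4833420G17Rik and Gm9752 start 19.6, 53.8 and 67.8 kb away. Their log2 fold changes were -0.24, -0.47 and -1.16 (adjusted p = 0.255, 0.196 and 0.0889 by edgeR). None of these 3 was called, and all 3 had every pool labelled Rbm47-IKO below every control pool in CPM, as 11.6% of all tested genes did. Gm9752 lies inside 4833420G17Rik on the opposite strand, so reads of the pair may not be told apart.

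**Figure D4:**
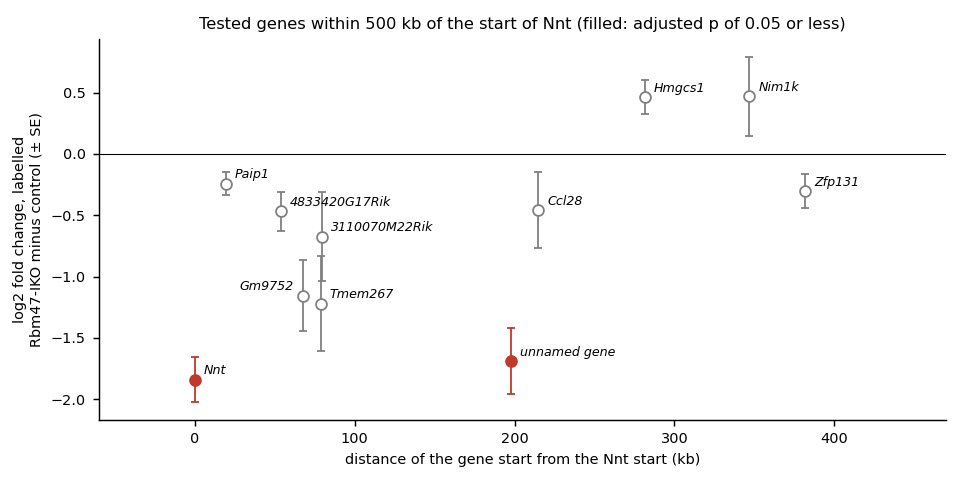
Log2 fold change (labelled Rbm47-IKO minus control, vertical axis, with standard error) of the tested genes whose start lies within 500 kb of the start of Nnt, against the distance between starts in kb, filled where the edgeR adjusted p was 0.05 or less. Genes from 19.6 to 214.8 kb away lie between -0.24 and -1.69, and further out Hmgcs1 and Nim1k lie above 0 and Zfp131 below it.

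Genes with the pattern most like that of Nnt were ranked by Pearson's r of log2 CPM over the 6 pools, among 13489 genes with a mean of at least 1 CPM. The 5 highest were Tgds (r = 0.998), Tymp (0.998), Myg1 (0.995), Anapc16 (0.995) and Sirt3 (0.994), with log2 fold changes of -1.14, -1.54, -0.31, -0.42 and -0.82. For G6pdx they were Rce1 (0.996), Capn5 (0.996), Lrrc59 (0.994), Ffar2 (0.992) and Metrnl (0.991), with log2 fold changes from 0.34 to 0.53. With 6 points that share their libraries and fall into 2 genotypes, such values describe these pools only.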

How the data were processed

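Per the labels, polyadenylated RNA of small intestinal mucosa was sequenced on an Illumina HiSeq, and the submitters' processing notes name STAR 2.5.1a, Subread, featureCounts 1.4.6-p5 and GRCm38. Whether strand was used in counting is not given in the sources used here. The authors deposited raw read counts per Ensembl gene for each pool. The deposited CPM and RPKM columns equal those counts scaled to the column total and to gene length, and were not used. Of the 38561 genes, 36639 were matched to symbols of GENCODE M21, and the others held 0.369% of counts.

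After filterByExpr and TMM scaling, the quasi-likelihood test of edgeR 4.0.16 (R 4.3.3) was run, with Benjamini-Hochberg adjustment over all 16425 genes and a threshold of 0.05. Log2 CPM used a prior count of 2. Alternatives used limma 3.58.1 and DESeq2 1.42.0. The procedure was tested on simulated data, drawn separately for each gene and pool from means and dispersions of these data. Differences shared by many genes of a pool, as in sex-linked or muscle transcripts, were not simulated. Members, lists and tests were chosen with earlier results of these data known. Named were Rbm47, all members, listed genes past the threshold, the 2 largest changes of each list, up to 3 neighbours of Nnt on each side, and the 5 genes most like Nnt and G6pdx. Xist, the Y-linked genes, overlapping genes, the remaining genes within 500 kb of Nnt, Fasn, Gsr, the Txnrd genes, Rpia, Pgls, Me1, Vdac1, Tktl1, Tktl2 and the Idh3 subunits fall outside that rule and were named after their values were seen. Some genes that the lists or the rule held are not reported here. Nothing in the labels says that pools are separate experiments, so p-values measure the spread between pools, and counts carry no molecular identifiers. The smallest p of an exact permutation test of 3 pools against 3 is 0.1.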

Additional observations from a re-analysis of the deposited data

How the results depend on the processing

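Of the 9 genes, 8 kept the sign of their log2 fold change under all 18 alternatives (9 other processing settings, 3 covariate or offset fits added after the data were seen and 6 that leave out 1 pool). Me3 did not, at -0.014 with upper quartile scaling, -0.011 with limma-voom, -0.002 with the replicate block, -0.014 with the muscle covariate and between -0.153 and 0.162 with 1 pool left out. The number of all genes called, 443, was 1252 with DESeq2, 100 with the replicate block, 716 with the muscle covariate, 58 with the Y-linked covariate and 266 with the GC offset, and ranged from 0 to 431 with 1 pool left out. It was 0 without pool 2 labelled Rbm47-IKO, with 1729 genes at an unadjusted edgeR p under 0.05. The number of the 9 called higher, 0, was 4 with DESeq2, 1 with library size only, 1 with the lowest filter, 2 with the muscle covariate and 0 to 1 with 1 pool left out. The number called lower, 1, was 2 with DESeq2 and 0 to 1 with 1 pool left out. The difference in the Me3 share was -0.00859 percentage points per length and -0.0504 without division by length, by construction. Nnt passed in all 12 alternatives that keep every pool (adjusted p 1.78e-17 to 0.0402) and in 3 of the 6 that do not. The causes of the other shifts were not tested.

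The pool numbers are shared between genotypes, but same-numbered pools deviated together with correlations of 0.408, -0.003 and -0.277, so the numbers do not pair the pools, and the replicate block is given only as a check. Under it Shpk and Cbr3 were no longer called (edgeR adjusted p of 0.0611 and 0.0612). Me3, at 41 to 55 counts per pool, is limited by depth.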

Other observations

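Genes of mitochondrial mass lay on both sides of 0. Of 10 listed, 0 were called by edgeR, 2 had an unadjusted edgeR p under 0.05, 2 were called by DESeq2 (1 higher and 1 lower), and the median log2 fold change was 0.04. Cs, citrate synthase, was at 1768 ± 195 CPM (SD, n = 3 pools) in the pools labelled Rbm47-IKO and 1311 ± 141 CPM in controls (log2 fold change 0.43, adjusted p = 0.175 by edgeR). Tfam, which packages and transcribes mitochondrial DNA, was at 15.3 ± 2.47 CPM against 23.9 ± 0.929 CPM, or -0.64 on the log2 scale (adjusted p = 0.0619 by edgeR). Pools did not overlap for 3 of the 10, Cs and Vdac1 higher and Tfam lower, as for 23.3% of all tested genes.

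Beyond the neighbours of Nnt chosen by rule, the next genes on the same side were looked at after their values were seen. The first of them, 3110070M22Rik, starts 79.4 kb away and had a log2 fold change of -0.67 (adjusted p = 0.422 by edgeR). Tmem267 and an unnamed gene, ENSMUSG00000094114, start 78.9 and 197.7 kb from Nnt. Their log2 fold changes were -1.22 (adjusted p = 0.156 by edgeR) and -1.69 (adjusted p = 0.025 by edgeR), from 8 to 29 counts and from 33 to 160 counts per pool. Both are annotated on the plus strand and end at the same base, so reads may be shared between them. They and 3110070M22Rik had every pool labelled Rbm47-IKO below every control pool, as 11.6% of all tested genes did. So did Paip1, 4833420G17Rik and Gm9752, nearer to Nnt. Further out, Ccl28 had -0.46 and Hmgcs1, of sterol synthesis, 0.46 (adjusted p = 0.543 and 0.128 by edgeR). Pools overlapped for Ccl28 and were higher without overlap for Hmgcs1.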
